A study of Mus musculus with 140 samples.

Results

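Whole kidneys of 8 mice were compared 4 h after surgery: 4 mice had cecal ligation and puncture (CLP) and 4 had a sham operation. CLP ties off and pierces the cecum, so that gut bacteria reach the abdomen and sepsis follows; the sham operation is its surgical control. The 8 small RNA libraries were taken by their labels (whole kidney, CLP or sham-operated, 4 h) out of 140 libraries from 28 mice. All mice were male wild-type C57BL6/OlaHsd mice, with no age stated in the labels. Each mouse gave 1 whole kidney library, which was not microdissected, and 4 libraries of laser-microdissected microvessels. The 28 whole kidney libraries fall into 7 groups of 4: CLP at 4 h, 24 h and 72 h, sham at the same times, and healthy mice at 0 h. The series is on microRNA (miRNA) responses of kidney microvessels in sepsis with acute kidney injury, and whole kidney shows the response of the undissected organ.

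A miRNA is a short RNA that guides Argonaute proteins to messenger RNAs, chiefly through bases 2 to 8 from its 5′ end, the seed. It is cut from a hairpin whose arms give a 5p and a 3p strand; one of them is usually kept in Argonaute and the other, the minor strand, is mostly degraded. In the kidney, miR-21 is known for its increase in injured tubules and in fibrosis, miR-223 is a miRNA of neutrophils and other myeloid cells, and the miR-200 family marks epithelium.

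Of 542 miRNAs tested, 1 rose in CLP kidneys at 4 h, the minor strand miR-21a-3p, and 0 fell. It averaged 61.0 ± 24.5 CPM in CLP and 23.6 ± 4.01 CPM in sham kidneys (SD, n = 4 each). CPM values relate the count of a miRNA to all miRNA counts of its library, after TMM scaling. Its sequence is shown with that of miR-21a-5p, the major strand of the same hairpin, because the strands of this hairpin differ in seed and in fold change. The other sequences belong to 4 of the next 9 miRNAs by p, and are shown because 3 of them come from the miR-23 and miR-27 hairpins and miR-223-3p marks myeloid cells. All are RefSeq sequences on build GRCm38.p6, printed 5′ to 3′, and the capitals mark the seed.
miR-21a-3p: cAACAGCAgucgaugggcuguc
miR-21a-5p: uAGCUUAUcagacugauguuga
miR-27a-5p: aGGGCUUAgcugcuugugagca
miR-23a-5p: gGGGUUCCuggggaugggauuu
miR-23b-5p: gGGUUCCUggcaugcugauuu
miR-223-3p: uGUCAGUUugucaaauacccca

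These 6 strands have 6 different seeds. No other of the 460 tested miRNAs with a RefSeq sequence has the seed of miR-21a-3p, miR-27a-5p, miR-223-3p, miR-23a-5p or miR-23b-5p. miR-21a-3p lies at chr11:86584082-86584103 and miR-21a-5p at chr11:86584120-86584141, both on the minus strand, inside an exon and annotated untranslated region of Vmp1, a gene transcribed in the same direction (GENCODE annotation of GRCm38.p6). miR-23a-5p (chr8:84208527-84208548, plus strand) and miR-27a-5p (chr8:84208685-84208706, plus strand) are neighbours in a cluster outside any other annotated gene. miR-23b-5p (chr13:63300492-63300512, plus strand) lies in an intron of 2010111I01Rik, with Fancc on the opposite strand, and miR-223-3p (chrX:96242884-96242905, plus strand) lies in an exon of the noncoding gene F630028O10Rik. miR-23a-5p and miR-23b-5p are 5 edits apart, as are miR-27a-5p and miR-27b-5p. The 3p strands of miR-27a and miR-27b differ by 1 base, and their counts are therefore uncertain.

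The 8 libraries had 1567211 to 2649726 miRNA counts in CLP kidneys and 1412288 to 2962567 in sham kidneys. Entries that name no miRNA, marked # in the deposited table, took 7.93% to 13.4% of all counts in CLP and 5.10% to 13.3% in sham libraries (two-sided exact permutation test over libraries, p = 0.6, where 0.0286 is the smallest p that 4 against 4 allows). At least 1 count was seen for 694 to 793 miRNAs in CLP and for 715 to 800 in sham libraries. Pairs of CLP libraries correlated at 0.973 to 0.985 over the tested miRNAs (Pearson's r of log2 CPM), CLP with sham libraries at 0.973 to 0.985 and pairs of sham libraries at 0.975 to 0.985. The libraries of the 2 groups were thus as alike as libraries within a group. The tissue label fits its defining miRNAs: the tubular miR-192-5p stood at 6616 to 10250 CPM in CLP and 5939 to 12200 CPM in sham libraries, and the epithelial miR-200b-3p at 3554 to 3777 CPM in CLP and 3663 to 6106 CPM in sham libraries.

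miR-21a-3p stood at 81.1, 77.8, 27.8 and 57.2 CPM in CLP replicates 1 to 4 and at 26.9, 20.2, 20.1 and 27.2 CPM in sham replicates 1 to 4, from raw counts of 207, 117, 69 and 114 in CLP and 74, 41, 29 and 60 in sham. All CLP libraries lay above all sham libraries, but replicate 3 of CLP by only a narrow margin over sham replicate 4. The log2 fold change, CLP over sham, was 1.35 (SE 0.257, 95% interval 0.82 to 1.88; edgeR quasi-likelihood test, Benjamini-Hochberg adjusted p = 0.00684). Of the 542 miRNAs tested, 1 was past the adjusted threshold of 0.05 in either direction, which is 0.185%. Leaving out CLP replicate 1 gave 1.1 (edgeR adjusted p = 0.161), leaving out CLP replicate 2 gave 1.14 (edgeR adjusted p = 0.0928) and leaving out sham replicate 3 gave 1.27 (edgeR adjusted p = 0.0519), so each of these ended the call; without CLP replicate 3 it was 1.53 (edgeR adjusted p = 8.17e-05). The call also rests on the spread shared by 28 libraries: from the 8 libraries alone the fold change was 1.36 with an edgeR adjusted p of 0.371, and from the 12 healthy and 4 h libraries 1.36 with 0.0693.

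**Figure D1:**
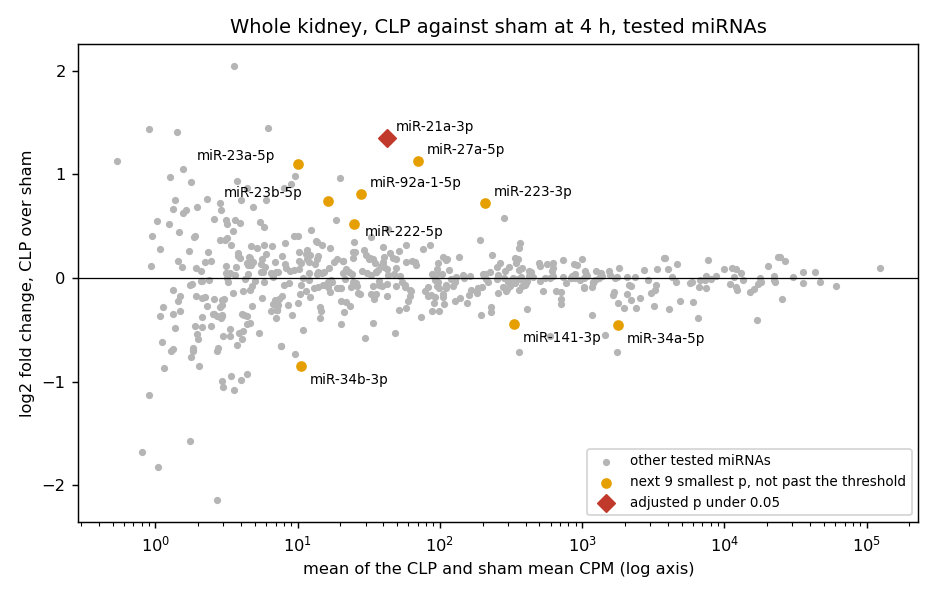
The log2 fold change of CLP over sham at 4 h (vertical axis) of each of the 542 tested miRNAs against its mean CPM in the 8 libraries (horizontal log axis). The diamond is miR-21a-3p at 1.35, the only miRNA past adjusted p 0.05; orange points are the next 9 by p, which did not pass, and the scatter around 0 widens to the left, at low CPM.

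The major strand of the same hairpin, miR-21a-5p, was far more abundant and overlapped between the groups. Its CPM were 26990, 25920, 23550 and 25490 in CLP and 27390, 17730, 18070 and 25600 in sham libraries. On the log2 scale CLP exceeded sham by 0.20 (SE 0.178, edgeR adjusted p = 0.999), and all 4 CLP libraries lay within the range of the sham libraries. The strands were then compared with each other within a library, which does not depend on how the libraries are scaled. Per 100 counts of miR-21a-5p, CLP libraries had 0.301, 0.300, 0.118 and 0.224 counts of miR-21a-3p, and sham libraries had 0.0982, 0.114, 0.111 and 0.106. The 4 CLP ratios lay above the 4 sham ratios, again with replicate 3 of CLP nearest to sham. The log2 ratio of miR-21a-3p to miR-21a-5p was higher in CLP by 1.03 (SE 0.228, 95% interval 0.56 to 1.496; limma over the 152 hairpins with both strands tested, adjusted p = 0.0208), and miR-21a was the 1 hairpin of the 152 past the threshold. Without CLP replicate 1 this difference was 0.88 (limma adjusted p = 0.0804), and leaving out CLP replicate 2 or 4 or sham replicate 1, 3 or 4 ended the call as well. Over 11 alternatives the difference ran from 0.88 to 1.33, and 7 of them ended the call. The highest limma adjusted p, 0.851, came from an alternative other than leaving out a replicate, where the highest was 0.0921.

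**Figure D2:**
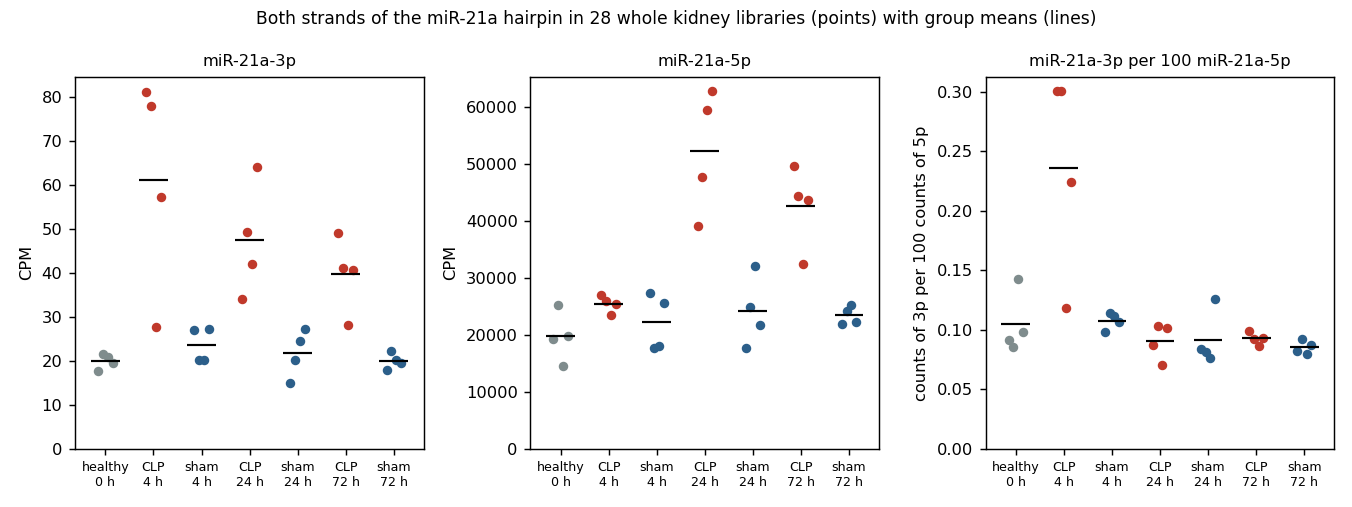
CPM of miR-21a-3p (left) and miR-21a-5p (middle) and counts of miR-21a-3p per 100 counts of miR-21a-5p (right) in each of the 28 whole kidney libraries (points), with the mean of each group of 4 (line), in order of time. miR-21a-3p is high in CLP at 4 h, 24 h and 72 h, miR-21a-5p is high in CLP at 24 h and 72 h, and the ratio is high in 3 of 4 CLP libraries at 4 h.

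The next 9 miRNAs by p did not pass, and they were picked after their values were seen. Before adjustment 23 miRNAs (4.24% of those tested) had p under 0.05, 11 of them higher and 12 lower in CLP. Over all 542 tested miRNAs, 262 had a log2 fold change above 0 and 280 below, which is the background for the lists below. Higher in every CLP than in every sham library were 4 miRNAs (0.738%), namely miR-21a-3p, miR-223-3p, miR-23b-5p and miR-222-5p. Lower in every CLP library were 2 (0.369%), miR-205-3p and miR-669f-5p, both at under 10 CPM in each library. A random split of libraries into 2 groups of 4 leaves no overlap, in either direction, with a probability of 0.0286. These shares do not exceed it, so a lack of overlap alone does not set a miRNA apart.

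Among miRNAs of blood cells, miR-223-3p had 223, 256, 327 and 232 CPM in CLP and 195, 125, 132 and 175 CPM in sham libraries. The groups did not overlap; replicate 3 of CLP, lowest for miR-21a-3p, was highest here. The log2 fold change was 0.73 (SE 0.187, 95% interval 0.34 to 1.11; edgeR adjusted p = 0.098), and DESeq2 placed it past the threshold (0.70, adjusted p = 0.0471). The minor strand miR-223-5p was scarce, with a mean of 5.03 CPM ± 1.42 in CLP and 2.97 CPM ± 1.27 in sham libraries (SD, n = 4 each) and a log2 fold change of 0.75 that did not pass. In whole tissue, more cells of a type and more RNA per cell cannot be told apart. Of the 9 tested leukocyte miRNAs, both strands of miR-223, miR-142a, miR-150 and miR-342 and miR-155-5p, which is also on the inflammation list, none was called; 7 had fold changes above 0, with a median log2 fold change of 0.12 against -0.004 over all 542. The summed level of the list was 3195 to 3644 CPM in CLP and 2944 to 3449 CPM in sham libraries, which overlap, and without CLP replicate 3 its median was -0.008. With any 1 library left out, 4 to 8 of the 9 lay above 0. The lymphocyte miRNA miR-150-5p, at 774 to 1229 CPM in CLP and 673 to 1094 CPM in sham libraries, had a log2 fold change of 0.12 (SE 0.336).

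The miR-23, miR-27 and miR-24 hairpins, known for high levels in endothelium, gave larger fold changes for 3 scarce 5p strands than for their abundant 3p strands, and none passed. miR-27a-5p had 165, 86.5, 54.3 and 76.7 CPM in CLP and 25.4, 59.6, 44.3 and 47.7 CPM in sham libraries. Replicate 1 of CLP was highest, and replicate 3 of CLP lay below the highest sham library. The log2 fold change was 1.12 (SE 0.266, 95% interval 0.58 to 1.67; edgeR adjusted p = 0.057; DESeq2 adjusted p = 0.0168), and without CLP replicate 1 it was 0.63. The other strand, miR-27a-3p, had 1878, 1946, 2445 and 1551 CPM in CLP and 3360, 1523, 1745 and 2090 CPM in sham libraries, with a log2 fold change of -0.16 (SE 0.171). Its neighbour miR-23a-5p had 14.1, 15.3, 15.7 and 9.03 CPM in CLP and 3.63, 6.89, 9.70 and 5.90 CPM in sham libraries, and the groups overlap through replicate 4 of CLP and replicate 3 of sham. CLP over sham this was 1.099 on the log2 scale (SE 0.376, edgeR adjusted p = 0.567), against 0.09 (SE 0.142) for miR-23a-3p. From a cluster on another chromosome, miR-23b-5p had 22.3, 22.6, 19.7 and 18.1 CPM in CLP and 11.99, 10.3, 9.70 and 16.8 CPM in sham libraries, with no overlap. It differed by 0.74 on the log2 scale (SE 0.261; adjusted p = 0.567 by edgeR), against 0.11 (SE 0.142) for miR-23b-3p. The 5p strands of the other hairpins were near 0: miR-27b-5p had a log2 fold change of 0.14 (SE 0.164), miR-24-2-5p 0.11 (SE 0.159) and miR-24-1-5p -0.005 (SE 0.198). None of the 13 tested members of the endothelial list was called, 7 lay above 0, and the median was 0.09; miR-126a-3p, the defining endothelial miRNA, had 20210 to 25380 CPM in CLP and 21400 to 32740 CPM in sham libraries (log2 fold change -0.20, SE 0.112).

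A pair of further minor strands were higher in the CLP means without passing. miR-92a-1-5p, the minor strand of a hairpin in the growth-related 17-92 cluster, had 47.4, 23.9, 40.7 and 29.6 CPM in CLP and 16.4, 26.1, 13.2 and 25.4 CPM in sham libraries, with replicate 2 of CLP inside the sham range. Its log2 fold change was 0.81 (SE 0.262, edgeR adjusted p = 0.567); the major strand miR-92a-3p was at -0.04 (SE 0.178), and the 10 tested members of the cluster had a median of -0.03, with 4 above 0. miR-222-5p had 25.1, 29.3, 25.4 and 39.1 CPM in CLP and 22.9, 18.7, 15.2 and 24.5 CPM in sham libraries, without overlap but with a narrow gap. CLP over sham it was 0.52 on the log2 scale (SE 0.202, edgeR adjusted p = 0.861), against -0.04 (SE 0.120) for the major strand miR-222-3p. Healthy kidneys at 0 h averaged 26.9 CPM of miR-222-5p, nearer to the CLP mean of 29.7 CPM than to the sham mean of 20.3 CPM.

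**Figure D3:**
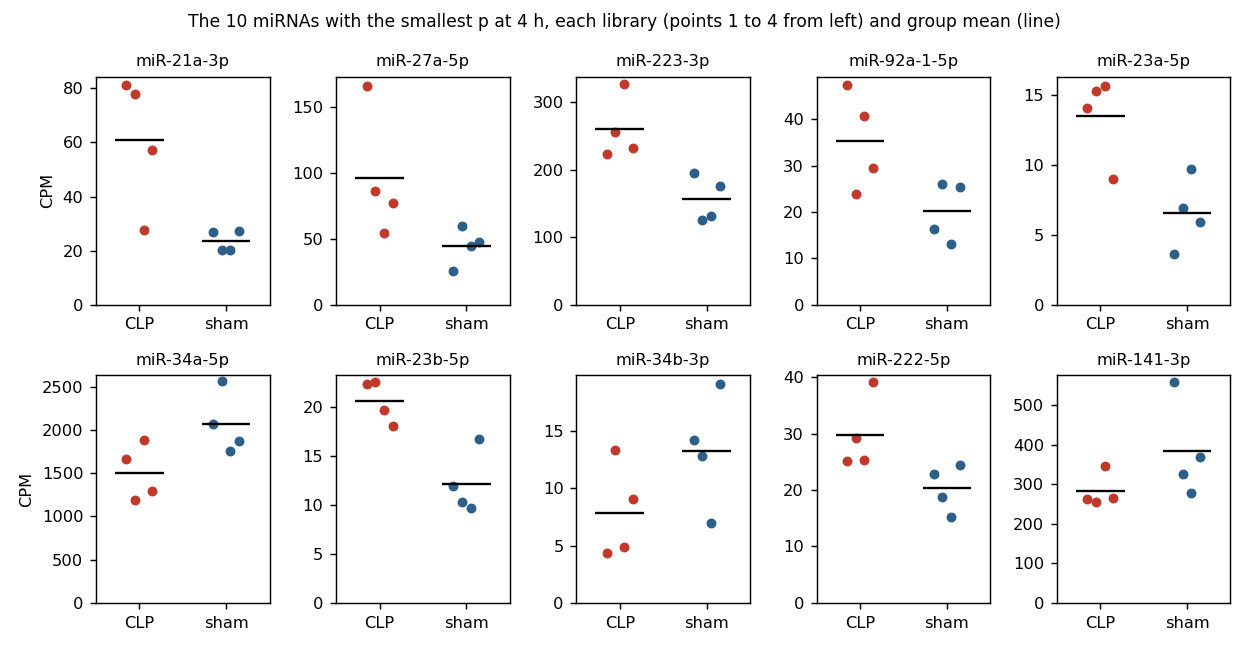
CPM (vertical axis, starting at 0) of the 10 miRNAs with the smallest p, in the CLP (red, left) and sham (blue, right) libraries at 4 h, with points for replicates 1 to 4 from left to right and a line at each group mean. miR-21a-3p, miR-223-3p, miR-23b-5p and miR-222-5p do not overlap between the groups, and only miR-21a-3p passed the adjusted threshold.

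The 3 of these 10 that were lower in the CLP mean were miR-34a-5p, miR-34b-3p and miR-141-3p, and none passed. miR-34a-5p, a miRNA induced by p53, had 1663, 1190, 1881 and 1289 CPM in CLP and 2073, 2562, 1758 and 1874 CPM in sham libraries. Its highest CLP library exceeded the lowest sham library, and the log2 fold change was -0.46 (SE 0.157, edgeR adjusted p = 0.567). miR-34b-3p, of the same family, had 4.31, 13.3, 4.83 and 9.03 CPM in CLP and 14.2, 12.8, 6.93 and 19.1 CPM in sham libraries (a log2 change of -0.85 with SE 0.300 and edgeR adjusted p = 0.567). miR-34c-3p, which has the seed of miR-34b-3p, had a value of 0.54 (SE 0.342), so the fold changes of this pair differ in sign. miR-141-3p had 264, 255, 345 and 267 CPM in CLP and 560, 326, 277 and 370 CPM in sham libraries, where replicate 3 of CLP lay above replicates 2 and 3 of sham. Its log2 fold change was -0.44 (SE 0.175, edgeR adjusted p = 0.861). Healthy kidneys at 0 h averaged 1558 CPM of miR-34a-5p and 260 CPM of miR-141-3p. The CLP means, 1506 and 283 CPM, lay nearer to these than the sham means, 2067 and 383 CPM. For miR-34b-3p the healthy mean, 10.7 CPM, lay between those of CLP (7.87 CPM) and sham (13.2 CPM). Healthy kidneys were not tested against either group.

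Of the 10 miRNAs with the smallest p, 6 were the minor strand of a hairpin with both strands tested, while such minor strands were 28.0% of the tested miRNAs. Of the 152 minor strands, 14 had an unadjusted p under 0.05 (8 higher and 6 lower), against 5 of the 152 major strands (1 higher and 4 lower). Over all hairpins the strand ratio did not shift in 1 direction: 84 of 152 had a higher ratio in CLP, with a median change of 0.04 on the log2 scale. After miR-21a, the next 7 hairpins by p did not pass, and they went both ways. The log2 ratio change was 1.15 (SE 0.375) for miR-27a, -1.28 (SE 0.422) for miR-224, -0.91 (SE 0.310) for miR-674, 0.71 (SE 0.246) for miR-100, 0.95 (SE 0.328) for miR-23a and -0.84 (SE 0.289) for miR-542, each with a limma adjusted p of 0.172. For miR-222 it was 0.56 (SE 0.203, limma adjusted p = 0.206). Several of these ratios rest on scarce minor strands. Over the 28 whole kidney libraries miR-224-3p averaged 1.81 CPM, miR-100-3p 2.80, miR-674-5p 3.98 and miR-23a-5p 9.03. The minor strands of miR-542, miR-222 and miR-27a averaged 11.8, 21.5 and 44.3 CPM. Raw counts of miR-224-3p were 0 to 8 in the 8 libraries at 4 h. Per 100 counts of miR-27a-3p, CLP libraries had 8.81, 4.44, 2.22 and 4.95 counts of miR-27a-5p and sham libraries had 0.757, 3.91, 2.54 and 2.28. The ratio was highest in replicate 1 of CLP and lowest in replicate 1 of sham, and replicate 3 of CLP lay within the sham range.

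**Figure D4:**
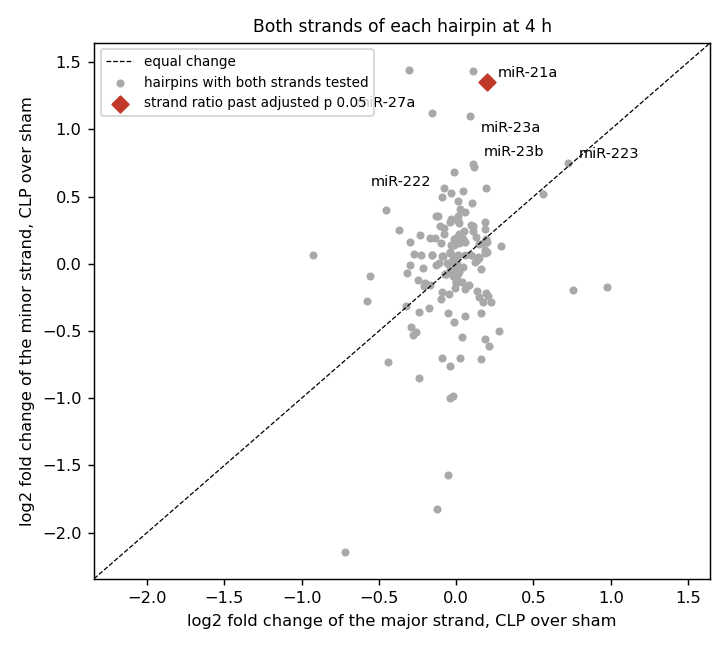
Log2 fold change, CLP over sham at 4 h, of the minor strand (vertical axis) against that of the major strand (horizontal axis) for the 152 hairpins with both strands tested; the dashed line marks equal change. miR-21a (diamond; 1.35 for the minor and 0.20 for the major strand) is the hairpin whose strand ratio passed adjusted p 0.05, and the points spread more along the vertical than along the horizontal axis.

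The miRNA lists were read for inflammation, injury, and cell types that the tissue sample could hold. In the inflammation list (miR-146a, miR-146b, miR-155, miR-132, miR-212, miR-147, miR-187, miR-221 and miR-222), none of the 12 tested members was called; 10 lay above 0, and the median log2 fold change was 0.11. With any 1 library left out, the median of all tested miRNAs moved to between -0.107 (without sham replicate 1) and -0.001; 6 to 8 of the 12 then lay above 0, and the list's median ran from 0.0005 (without sham replicate 1) to 0.13. Scaled to the # entries, which moved the median of all tested miRNAs to -0.39, 2 of the 12 lay above 0, and the list's median lay 0.10 above that of all miRNAs. miR-146a-5p, induced by NF-kB as a brake on innate immune signalling, had 1652, 1484, 1766 and 2120 CPM in CLP and 1963, 1715, 1634 and 1669 CPM in sham libraries, fully overlapping. Its log2 fold change was 0.01 (SE 0.194, 95% interval -0.39 to 0.40; edgeR adjusted p = 0.999). miR-155-5p, a miRNA of activated leukocytes, had a log2 fold change of 0.04 (SE 0.173), and miR-221-3p, the most abundant of the list, 0.02 (SE 0.123). The miR-147 strands, known from activated macrophages, had 10 counts (3p) and 0 counts (5p) over all 8 libraries and were not tested.

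In the injury and fibrosis list, miR-21a-3p was the 1 called member of 12 tested, with 6 above 0 and a median of 0.02. The fibroblast-associated miR-214-3p (0.19, SE 0.150) and miR-199a-5p (-0.02, SE 0.138) were not called. miR-210-3p, the main hypoxia-induced miRNA, had 383, 313, 282 and 337 CPM in CLP and 296, 398, 357 and 266 CPM in sham libraries, with a log2 fold change of -0.002 (SE 0.207, 95% interval -0.42 to 0.42).

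The epithelial lists and the let-7 family, which keeps cells differentiated, gave no call. In the miR-200 family 1 of 9 tested members lay above 0 and the median was -0.29; miR-200b-3p had 3773, 3622, 3777 and 3554 CPM in CLP and 3663, 4386, 3973 and 6106 CPM in sham libraries (log2 fold change -0.30, SE 0.165). The high sham value comes from replicate 4, and without it the family's median was -0.17, against -0.45 without sham replicate 1. The family's summed level was 16180 to 17960 CPM in CLP and 16690 to 23940 CPM in sham libraries, which overlap. In the let-7 family none of 9 tested members lay above 0 and the median was -0.24; let-7f-5p, the most abundant, had 17360, 13390, 8686 and 18550 CPM in CLP and 22080, 14370, 13800 and 26730 CPM in sham libraries (log2 fold change -0.41, SE 0.221). The groups overlap, and replicate 3 of CLP was lowest; the family's median was -0.19 without that library and -0.45 without sham replicate 1. The tubular list (8 tested, median 0.09) and the miR-30 family (11 tested, median -0.04) had 6 and 5 members above 0. miR-192-5p had a log2 fold change of 0.02 (SE 0.198) and miR-30a-5p, among the most abundant miRNAs of the kidney, -0.04 (SE 0.132).

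Lists for other cells that the tissue sample could hold were read in the same way. Of 7 erythroid miRNAs 3 lay above 0 (median -0.07); miR-451a had 3314, 3834, 3356 and 2420 CPM in CLP and 6586, 2505, 1764 and 2696 CPM in sham libraries, so that a single sham library, replicate 1, was highest. The list's summed level was 9849 to 13580 CPM in CLP and 7105 to 15520 CPM in sham libraries. miR-486a-5p and miR-486b-5p have near-equal counts in every library and cannot be counted as separate evidence. Of 4 smooth muscle miRNAs 1 lay above 0 (median -0.05), and miR-143-3p had a log2 fold change of -0.07 (SE 0.178). The liver miRNA miR-122-5p was scarce, at 0.502 to 13.7 CPM in CLP and 1.45 to 4.99 CPM in sham libraries. It had 35 counts in replicate 1 of CLP and 1 to 11 in the other libraries. Striated muscle miRNAs had a median of -0.59 with 0 of 3 above 0; miR-133a-3p was at 211 to 380 CPM in CLP and 299 to 653 CPM in sham libraries (log2 fold change -0.72, SE 0.337, edgeR adjusted p = 0.983). For neuronal and endocrine miRNAs the median was 0.07 (5 of 7 above 0), and miR-124-3p had 14.9, 5.32, 0.805 and 2.01 CPM in CLP and 1.82, 0.984, 0.693 and 1.82 CPM in sham libraries. That largest positive fold change of the table, 2.05 (SE 0.859, edgeR adjusted p = 0.863), rests on 38 counts in replicate 1 of CLP against 1 to 8 in the other 7 libraries.

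The remaining lists had medians from -0.10 to 0.05. The miR-29 family had 3 of 6 above 0 (median -0.01), the cluster of miR-183, miR-96 and miR-182 0 of 4 (-0.10), the cluster of miR-322, miR-503 and miR-351 6 of 9 (0.03), the imprinted Dlk1-Dio3 cluster 18 of 35 (0.00), the Hox cluster 3 of 7 (-0.03) and the poorly characterised entries 8 of 9 (0.05). No member of them was called.

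**Figure D5:**
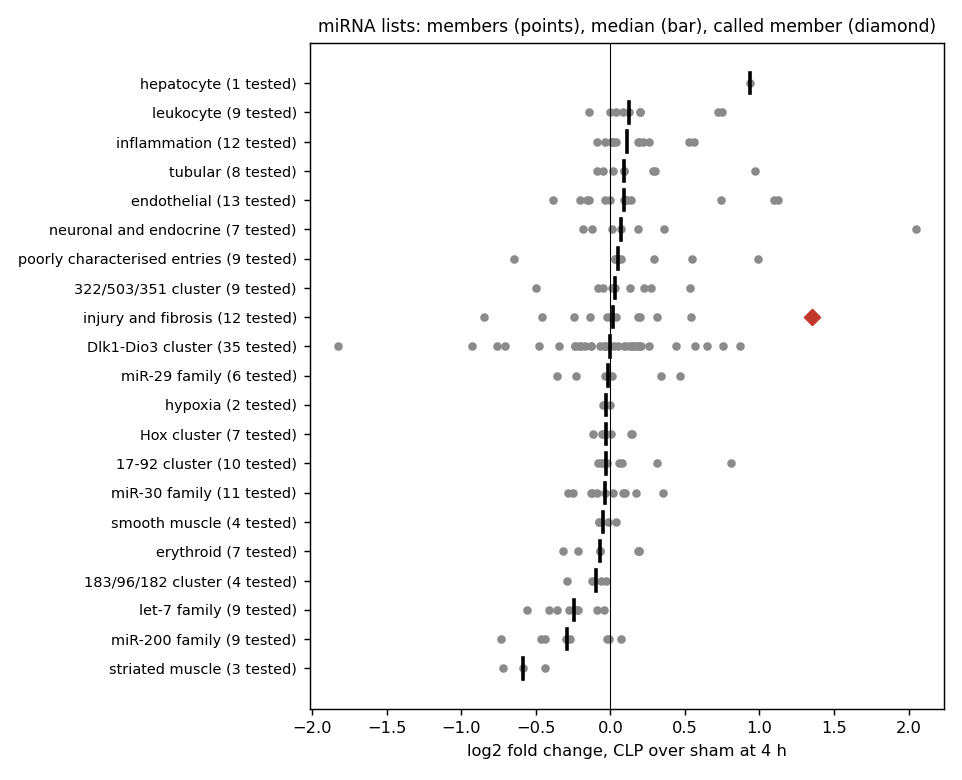
Log2 fold change of CLP over sham at 4 h (horizontal axis) of every tested member (points) of 21 miRNA lists, with the median of each list (bar); lists are ordered by median. The only called member is miR-21a-3p (diamond, injury and fibrosis); the miR-200 (-0.29) and let-7 (-0.24) medians lie below 0 and the leukocyte (0.12) and inflammation (0.11) medians above.

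The most abundant miRNAs of the kidney differed little between the groups. The 10 with the highest CPM held 43.5% to 45.3% of the miRNA counts in CLP and 42.8% to 44.3% in sham libraries. miR-26a-5p, the most abundant, held 12.5% ± 2.14 in CLP and 11.7% ± 2.25 in sham libraries (SD, n = 4 each), with a log2 fold change of 0.09 (SE 0.128, 95% interval -0.17 to 0.35). miR-143-3p was next with 5.73% ± 1.83 in CLP and 6.00% ± 0.935 in sham libraries. The 10 log2 fold changes ran from -0.20 (miR-126a-3p) to 0.20 (miR-107-3p).

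The width of the intervals differed with the level of a miRNA. At 1000 CPM or more (94 miRNAs) the median 95% interval reached 0.32 to either side of the log2 fold change, at 100 to 1000 CPM (107 miRNAs) 0.34, at 10 to 100 CPM (153 miRNAs) 0.48 and under 10 CPM (188 miRNAs) 1.101. Of the 16 miRNAs with a log2 fold change beyond 1 in size, 13 stood under 10 CPM, 3 at 10 to 100 CPM and 0 above. A change of an abundant miRNA by 1 log2 unit was thus within reach of these libraries, and a change of that size in a scarce one often was not.

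The 4 h response was then set beside the later ones, each from its own mice. At 24 h 4 of 542 miRNAs were called between CLP and sham (0.738%), and at 72 h 10 were (1.85%). miR-21a-3p was among them at both times, with log2 fold changes of 1.13 (SE 0.242, edgeR adjusted p = 0.0174) at 24 h and 0.99 (SE 0.242, edgeR adjusted p = 0.0213) at 72 h. In CLP kidneys it averaged 61.0 CPM ± 24.5 at 4 h, 47.3 CPM ± 12.7 at 24 h and 39.8 CPM ± 8.66 at 72 h (SD, n = 4 each). In sham kidneys it averaged 23.6 CPM ± 4.01, 21.7 CPM ± 5.41 and 19.95 CPM ± 1.78 at these times, and healthy kidneys at 0 h had 19.9 CPM ± 1.66. The effect at 4 h minus that at 24 h was 0.22 (95% interval -0.50 to 0.94), and minus that at 72 h 0.36 (-0.36 to 1.08), neither past the threshold.

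In its group means the major strand had another course, but the edgeR tests of its effect at 4 h against later times did not pass. miR-21a-5p was called at 24 h (1.11, SE 0.180, edgeR adjusted p = 0.00052) and at 72 h (0.86, SE 0.180, edgeR adjusted p = 0.0079), and its fold change at 4 h was 0.20. In CLP kidneys it averaged 25490 CPM ± 1436 at 4 h, 52310 ± 10970 at 24 h and 42600 ± 7282 at 72 h, and in sham kidneys 22200 ± 5019, 24150 ± 6085 and 23440 ± 1606 (SD, n = 4 each). Its effect at 4 h minus that at 24 h was -0.92 (SE 0.253), the smallest p of that comparison, which did not pass (unadjusted p = 0.00109, edgeR adjusted p = 0.346). The counts of miR-21a-3p per 100 of miR-21a-5p averaged 0.236 ± 0.0864 in CLP and 0.107 ± 0.00688 in sham kidneys at 4 h, 0.0907 ± 0.0153 in CLP and 0.0916 ± 0.0229 in sham at 24 h, and 0.0927 ± 0.00487 in CLP and 0.0852 ± 0.00547 in sham at 72 h (SD, n = 4 each). Healthy kidneys had 0.104 ± 0.0261. In these means the ratio stood apart only in CLP at 4 h; the test of the ratio change at 4 h minus that at 24 h did not pass (1.05, SE 0.322, limma adjusted p = 0.503).

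No miRNA passed in the test of 4 h minus 24 h (25 with unadjusted p under 0.05; 0 by DESeq2) or of 4 h minus 72 h by edgeR (50 with unadjusted p under 0.05; 1 by DESeq2, miR-1247-5p). miR-27a-5p, at 1.12 at 4 h, had 0.10 (SE 0.258) at 24 h and 0.39 (SE 0.260) at 72 h. Its difference from 24 h was 1.03 (95% interval 0.27 to 1.78, edgeR adjusted p = 0.848). miR-223-3p had 0.46 (SE 0.183, edgeR adjusted p = 0.425) at 24 h and 0.66 (SE 0.183, edgeR adjusted p = 0.0547) at 72 h, close to its 0.73 at 4 h; the differences were 0.27 (-0.27 to 0.80) and 0.07 (-0.47 to 0.60). miR-222-5p had 0.52 at 4 h, 0.33 at 24 h and -0.57 at 72 h, and its effect at 4 h minus that at 72 h was 1.097 (SE 0.278, edgeR adjusted p = 0.0823). Of the 10 miRNAs called at 72 h, miR-139-5p (-0.002, SE 0.162), miR-455-3p (-0.07, SE 0.169), miR-17-5p (-0.04, SE 0.152) and miR-92b-3p (-0.03, SE 0.174) had log2 fold changes near 0 at 4 h. miR-223-5p was called at 72 h (1.52, SE 0.326, edgeR adjusted p = 0.00843) and had 0.75 (SE 0.397) at 4 h, the same direction without passing. miR-6538 (0.53, SE 0.828), miR-1247-5p (-0.31, SE 0.294) and miR-3105-3p (0.15, SE 0.196), called at 72 h, and miR-3061-3p (0.13, SE 0.286) and miR-2137 (0.03, SE 0.391), called at 24 h, were not called at 4 h either. These comparisons across time join libraries that differ in make-up: the # entries took 5.10% to 13.96% of counts in the 12 healthy and 4 h libraries and 0.907% to 2.32% in the 16 libraries of 24 h and 72 h, and the part of this in the differences was not tested.

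Glomeruli of the same 8 mice were the microdissected compartment compared with whole kidney. In the test of whole kidney minus glomeruli, with the mouse as a block, 0 of 393 miRNAs passed (edgeR; 12 with unadjusted p under 0.05; 0 by DESeq2). The glomerular libraries had 97321 to 249493 miRNA counts in CLP and 77258 to 256190 in sham mice. The # entries took 94.6% to 97.4% of all counts in glomeruli of CLP and 94.1% to 96.9% in those of sham mice, far above their share in whole kidney, and the part of this in the comparison was not tested. miR-21a-3p had 4, 5, 0 and 0 counts in the glomeruli of CLP replicates 1 to 4 and 0 in each of the 4 sham libraries. A count of 0 allows up to 3 counts (counting error only), which is 26.2 and 32.7 CPM in CLP replicates 3 and 4, and 18.9, 40.1, 13.5 and 11.5 CPM in sham replicates 1 to 4. The limits of sham replicates 1, 3 and 4 lie below the 20.1 to 27.2 CPM of whole sham kidney, and that of sham replicate 2 lies above. No fold change is given for glomeruli, since miR-21a-3p was not among the 338 miRNAs that passed the filter in the fit of glomerular libraries alone. Since all 4 sham libraries of glomeruli are at 0, the test of whole kidney minus glomeruli cannot decide whether the effect on miR-21a-3p differs. Its estimate was -5.23 on the log2 scale (95% interval -11.98 to 1.51; edgeR adjusted p = 0.953). miR-21a-5p had 9452, 13740, 10140 and 7219 CPM in the glomeruli of CLP and 7571, 6954, 7563 and 10720 CPM in those of sham mice, and its effect in whole kidney minus that in glomeruli was -0.05 (95% interval -0.66 to 0.56). miR-223-3p had 346, 448, 411 and 349 CPM in glomeruli of CLP and 239, 374, 131 and 145 CPM in those of sham mice, with 1 sham library inside the CLP range. Its log2 fold change in glomeruli was 0.84 (SE 0.432, edgeR adjusted p = 0.36), and the difference of whole kidney from glomeruli was -0.19 (95% interval -1.40 to 1.01).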

How the data were processed

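The small RNA libraries are RealSeq preparations (labels' protocols). The submitters' processing notes name cutadapt 3.3, Bowtie 1.3.0, FastQC 0.11.9 and MultiQC 1.10, and the builds GRCm38.p6 and GRCm39. The build of each step, and the counting of reads that match several miRNAs, were not given in the sources used here. The authors deposited raw counts per mature miRNA, without normalization; 1474 entries are miRNAs, and 10 marked # name none and entered neither library sizes nor tests (5.10% to 13.4% of counts in the 8 libraries).

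The 28 whole kidney libraries were fitted with edgeR 4.0.16 in R 4.3.3 as 7 groups of 4 that share one estimate of the spread, with TMM scaling and filterByExpr (minimum count 10, total 15), which kept 542 miRNAs. CLP was compared with sham by the two-sided quasi-likelihood test at a Benjamini-Hochberg adjusted p of 0.05, adjusted over the tested miRNAs of each comparison. Differences from 24 h and 72 h are contrasts of that fit. Whole kidney and glomeruli were compared in 16 libraries with the mouse as a block. The strand ratio was tested with limma 3.58.1 on log2 CPM (prior count 2), a test chosen after seeing the data. The edgeR test of CLP against sham at 4 h, the test with the mouse as a block and the limma test were tried on simulated data. For limma these were normally distributed values without a count floor. The contrasts with 24 h and 72 h and the DESeq2 tests were not simulated. The groups are as the labels give them, and the labels call the replicates biological; each is a mouse.

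Named are the called miRNAs (up to 15 in each direction, and up to 5 in the contrasts between effects), each list's called members and its 3 most abundant, and the other strand of each; others were chosen after their values were seen. The comparison and the 21 lists were chosen with earlier results of these data known. Alternatives were DESeq2 1.42.0, RLE size factors, miRNA totals without TMM, scaling to the # entries, no filter (at least 1 count), at least 100 CPM, a prior count of 0.5, the replicate or mouse block, fewer libraries in the fit, and leaving out each replicate.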

Additional observations from a re-analysis of the deposited data

Results flagged for a closer look

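Of 26 groups of 4 libraries checked for a value that stands far from the other 3 (the 10 miRNAs with the smallest p, miR-21a-5p, the miRNA counts and the share of # entries, in CLP and in sham), 1 did so, where chance gives about 1 in 20. It was miR-141-3p in CLP kidneys, with 345.4 CPM in replicate 3 against 255 to 267 CPM in the other 3.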

How the results depend on the processing

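The count of called miRNAs between CLP and sham at 4 h, 1 with edgeR, was 3 with DESeq2, 7 without a filter, 0 with at least 100 CPM (miR-21a-3p is then not tested), 0 when scaled to the # entries, 0 from the 8 libraries alone, 0 from the 12 healthy and 4 h libraries, and 0 to 2 when 1 library was left out. Scaled to the # entries, miR-21a-3p was at 0.80 (edgeR adjusted p = 0.509), and the median of all miRNAs at -0.39. The log2 fold change of miR-21a-3p ran from 0.80 to 1.53 over 17 alternatives. With the replicate number as a block the count stayed at 1 (miR-21a-3p in both); same-numbered CLP and sham libraries correlated at -0.28 to -0.134 in their deviations, so the numbers were not taken to pair the mice. For the effect at 4 h minus that at 24 h, with 0 calls, no filter gave 5 and leaving out 1 library 0 in each case. For 4 h minus 72 h, with 0 calls, DESeq2 gave 1, no filter 6, scaling to the # entries 298, all lower, with the median of all miRNAs at -1.32, and leaving out 1 library 0 to 9, the 9 without sham replicate 1. Under that scaling miR-223-3p turned to -1.30 in this comparison. For whole kidney minus glomeruli, with 0 calls, leaving out 1 mouse, with its whole kidney and glomerular libraries, gave 0 to 2, the 2 without sham replicate 1. Without the mouse block (no replicate block) the count stayed at 0. The cause of these changes was not tested. Less can be said of miRNAs under 10 CPM, whose intervals are widest.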
